A study of Homo sapiens with 18 samples.

Results

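The histone genes on the array were followed in interleukin-1β-stimulated ECV304 cells, with and without aminaphtone. They were chosen by symbol, as the transcript clusters annotated with a single H1, H2A, H2B, H3 or H4 cluster gene, and 61 genes matched. Of these, 55 had a mean log2 level over the 18 arrays above 6.19, the 25th percentile of all annotated transcript clusters, and these 55 are described here, out of 13805 genes that passed the same filter. The rule itself used only symbols and the mean level over all arrays. The set was chosen with earlier results of these data known. The 6 genes under the filter were H2BC3, H4C7, H1-1, H2AC1, H1-6 and H2BC1, with H2BC3 nearest to it at 5.81. Just above it lay H3C3 at 6.37, H4C16 at 6.64 and the pseudogene H2BC19P at 6.65.

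The 55 genes comprised 8 of class H1, 13 of H2A, 15 of H2B, 8 of H3 and 10 of H4, together with H1-10-AS1, a long non-coding RNA that carries a histone symbol without encoding a histone. RefSeq lists 52 of them as protein coding, and H1-9P and H2BC19P are pseudogenes. On chromosome 6 lay 43 of the genes, and 6 on chromosome 1.

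Every group was of confluent ECV304 cells that had been kept in low serum before stimulation, and every group received interleukin-1β (IL-1β), an inflammatory cytokine, at 100 IU/ml. The treated cells received aminaphtone, a drug used for capillary disorders, at 6 µg/ml together with IL-1β, and the control cells received the same volume of plain medium. RNA was collected after 1, 3 or 6 h, from 3 replicates per group that the study describes as independent, 18 samples in all, each on 1 Affymetrix Human Gene ST array. There were no cells without IL-1β, so a difference between times cannot be told apart from the effects of the low serum or of time in culture. ECV304 is labelled endothelial and is known as a derivative of a bladder carcinoma line. The endothelial markers PECAM1, VWF, TEK and KDR lay under the filter here (mean log2 5.30, 6.03, 5.30 and 5.45), CDH5 and CLDN5 were above it at 6.99 and 7.73, and the keratins KRT8, KRT18 and KRT7 stood at 12.38, 11.75 and 11.36. The other epithelial markers were lower, KRT19 at 6.70, EPCAM at 7.46 and CDH1 at 6.53, and so were the urothelial UPK1B, UPK2, UPK3A, GATA3, KRT5 and KRT13, at 6.51 to 7.48, a range that CDH5 shares.

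Core histones H2A, H2B, H3 and H4 form the nucleosome around which DNA is wrapped, and linker histone H1 binds the DNA between nucleosomes. Most genes described here are replication-dependent: many near-identical copies are transcribed together in S phase, when new DNA must be packed, and their mRNAs end in a stem-loop in place of a poly(A) tail and are degraded when DNA synthesis stops. H1-10 belongs to the replication-independent linker histones, and H1-7 and H1-8 are known from germ cells. Because copies of a class are so alike, a probe can also bind the mRNA of a related gene, and the share of each copy in a signal was not tested.

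The start-site regions of these genes are shown because they carry the class-specific elements by which histone promoters are known. The promoters of 5 genes follow, 1 per class, each from the gene that was lower at 6 h than at 1 h both with aminaphtone and in control and had the largest mean fall of its class among genes with a promoter entry. H2BC12 and H2BC21 follow them, since both lay above control with aminaphtone at 3 and 6 h, and they were picked with their values known. The sequences are from RefSeq (GRCh38.p14), 300 bases each, 5′ to 3′ on the gene's own strand, from 250 bases before the start site to 50 after it. Capitals mark, on either strand, 4 motifs known from histone promoters: the octamer, spelled ATTTGCAT, the CCAAT box, the TATA box, spelled TATAAA, and the H1 box, spelled AAACACA and known from linker histone genes. The windows are chr6:26234938-26235237 (minus strand) for H1-3, chr6:26216671-26216970 (plus) for H2AC8, chr6:27807880-27808179 (minus) for H2BC13, chr6:26020201-26020500 (plus) for H3C1, chr6:27139032-27139331 (plus) for H4C9, chr6:27146809-27147108 (minus) for H2BC12 and chr1:149886633-149886932 (minus) for H2BC21.
H1-3: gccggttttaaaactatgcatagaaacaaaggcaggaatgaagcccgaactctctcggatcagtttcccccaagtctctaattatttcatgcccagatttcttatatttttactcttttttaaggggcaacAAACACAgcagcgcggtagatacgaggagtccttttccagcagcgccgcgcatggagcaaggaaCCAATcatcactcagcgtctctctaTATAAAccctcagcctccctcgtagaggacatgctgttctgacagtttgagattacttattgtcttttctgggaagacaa
H2AC8: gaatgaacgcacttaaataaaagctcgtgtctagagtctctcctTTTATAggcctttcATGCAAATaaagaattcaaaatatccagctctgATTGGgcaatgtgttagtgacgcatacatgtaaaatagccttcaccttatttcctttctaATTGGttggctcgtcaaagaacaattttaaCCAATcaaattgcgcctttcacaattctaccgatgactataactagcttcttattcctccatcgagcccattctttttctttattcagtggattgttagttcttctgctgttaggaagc
H2BC13: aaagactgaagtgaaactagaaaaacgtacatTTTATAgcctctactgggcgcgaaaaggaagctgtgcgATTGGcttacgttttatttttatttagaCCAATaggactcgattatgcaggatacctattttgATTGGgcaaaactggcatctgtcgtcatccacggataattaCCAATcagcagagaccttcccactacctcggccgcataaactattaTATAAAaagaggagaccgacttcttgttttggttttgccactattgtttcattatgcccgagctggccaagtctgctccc
H3C1: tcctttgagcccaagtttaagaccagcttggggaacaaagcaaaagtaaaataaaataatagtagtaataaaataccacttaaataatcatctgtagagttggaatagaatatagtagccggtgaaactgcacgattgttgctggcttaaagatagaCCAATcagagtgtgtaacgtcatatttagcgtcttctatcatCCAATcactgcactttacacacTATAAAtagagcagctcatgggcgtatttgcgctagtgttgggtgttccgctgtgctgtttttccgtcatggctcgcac
H4C9: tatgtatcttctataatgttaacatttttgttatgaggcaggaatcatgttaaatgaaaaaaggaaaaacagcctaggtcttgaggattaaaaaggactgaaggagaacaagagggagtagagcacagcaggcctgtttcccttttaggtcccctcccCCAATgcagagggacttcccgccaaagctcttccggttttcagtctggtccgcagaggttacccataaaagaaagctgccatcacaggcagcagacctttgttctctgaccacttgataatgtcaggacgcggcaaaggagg
H2BC12: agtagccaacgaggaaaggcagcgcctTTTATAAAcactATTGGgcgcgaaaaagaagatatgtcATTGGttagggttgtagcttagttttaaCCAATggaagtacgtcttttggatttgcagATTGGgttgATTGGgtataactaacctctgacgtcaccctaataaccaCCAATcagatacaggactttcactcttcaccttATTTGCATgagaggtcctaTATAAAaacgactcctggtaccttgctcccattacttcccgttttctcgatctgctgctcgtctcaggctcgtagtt
H2BC21: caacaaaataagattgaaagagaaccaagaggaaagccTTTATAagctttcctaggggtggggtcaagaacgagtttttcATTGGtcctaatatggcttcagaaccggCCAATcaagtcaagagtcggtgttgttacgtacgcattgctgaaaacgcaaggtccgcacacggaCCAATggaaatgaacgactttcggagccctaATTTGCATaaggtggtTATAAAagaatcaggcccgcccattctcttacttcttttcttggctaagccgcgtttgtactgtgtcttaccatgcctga

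TATAAA began 30 bases before the start site in H1-3, H2BC13 and H2BC21, 29 before it in H3C1 and 27 before it in H2BC12, and this window of H4C9 holds no copy of these letters. The H1-3 promoter holds AAACACA 119 bases before the start, with CCAAT at 55. H2BC12 and H2BC21 share the octamer at 46 bases before the start, and H2AC8 holds it on the opposite strand at 192.

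Promoter entries were found for 47 of the 55 genes. The octamer was in 9 of 12 H2A promoters (75%) and 11 of 14 H2B promoters (78.6%), and in 0 of 7 H1, 0 of 6 H3 and 0 of 8 H4 promoters, against 1.8% of all 27305 promoters of this length. AAACACA was in 5 of 7 H1 promoters (71.4%), in 1 of 12 of H2A and in none of the other classes, against 5.76% of all promoters. CCAAT was in 6 of 7 H1 promoters, in every H2A, H2B and H3 promoter and in 3 of 8 H4 promoters, against 35.7% of all. TATAAA was in 30 of the 47 (63.8%), against 12% of all. These counts are matches of letters, not measured binding, and matches of different motifs may overlap in a promoter. H2A and H2B genes share many of these windows: 8 pairs of the genes described here lie head to head with start sites 230 to 248 bases apart, so that their promoter windows overlap. One match can then be counted for both partners, as both strands were searched. The octamer counts of H2A and H2B are therefore not separate, and which gene a match belongs to was not tested.

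**Figure D1:**
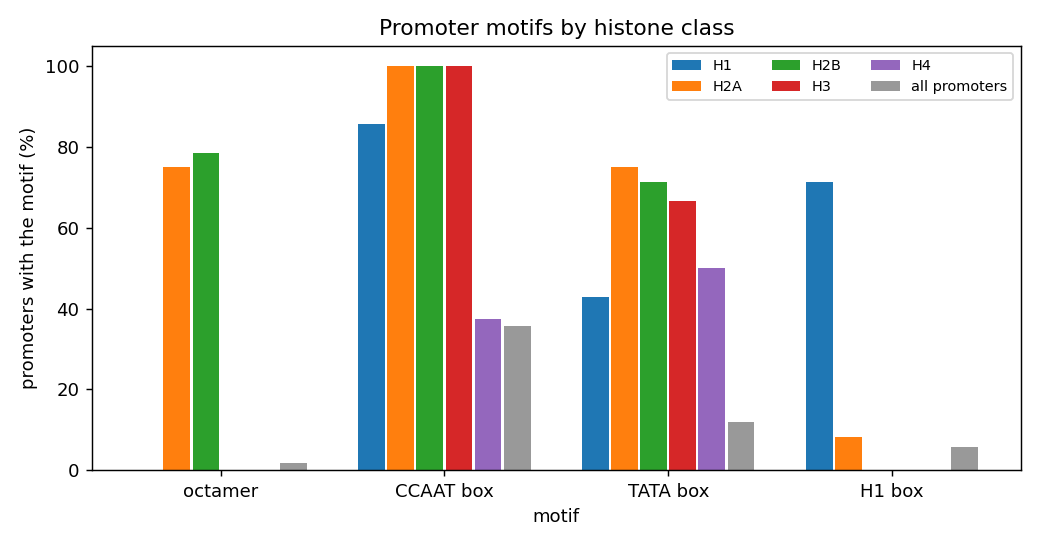
Share of promoters (%, bars) that hold each of the 4 motifs on either strand, for the 5 histone classes and for all promoters in grey. The octamer appears in the H2A and H2B bars (75% and 78.6%) and in 1.8% of all promoters, and the H1 box stands at 71.4% in H1.

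The histone genes ranged widely in level. Of the 55, 13 were in the top 10% of tested transcript clusters by mean level, and the lowest, H3C3, was at percentile 4.13. H1-4, a main somatic linker histone, had the highest mean (log2 13.22), and the leading gene of each other class was H2BC14 (12.93), H4C3 (12.71), H3C11 (12.69) and H2AC20 (11.89). Signals of different genes come from different probes, so these levels are not a ranking of mRNA amounts. The median residual SD within groups was 0.194 log2 units over the histone genes and 0.183 over all tested transcript clusters.

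One group of arrays stood apart. The 3 control arrays at 1 h correlated with each other at 0.889 to 0.963 over the tested transcript clusters, against 0.970 or more within every other group. The histone genes shared in this: their median deviation from the group mean was -0.243 in control 1 h replicate 1, 0.315 in replicate 2 and -0.106 in replicate 3. The counts of histone genes that use these arrays are therefore given with and without them. Where the control fall of a histone gene named below was lost or moved by over 1.5 times without 1 of these arrays, that value is given. This check covered only the histone genes chosen by symbol. Control falls of other genes, and of transcript clusters with several histone symbols, were not checked in this way. No batch is named in the labels.

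The median level over the 55 genes in each array was lower at 6 h than at 1 h in both arms. With aminaphtone it was 9.43, 9.50 and 9.52 at 1 h, 9.19, 9.38 and 9.18 at 3 h, and 9.08, 8.95 and 9.04 at 6 h. In control it was 9.22, 9.68 and 9.29 at 1 h, 8.95, 9.52 and 9.32 at 3 h, and 9.02, 8.89 and 8.99 at 6 h. The 2 times did not overlap in either arm, and the control arrays at 1 and 3 h were more widely spread than those with aminaphtone.

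**Figure D2:**
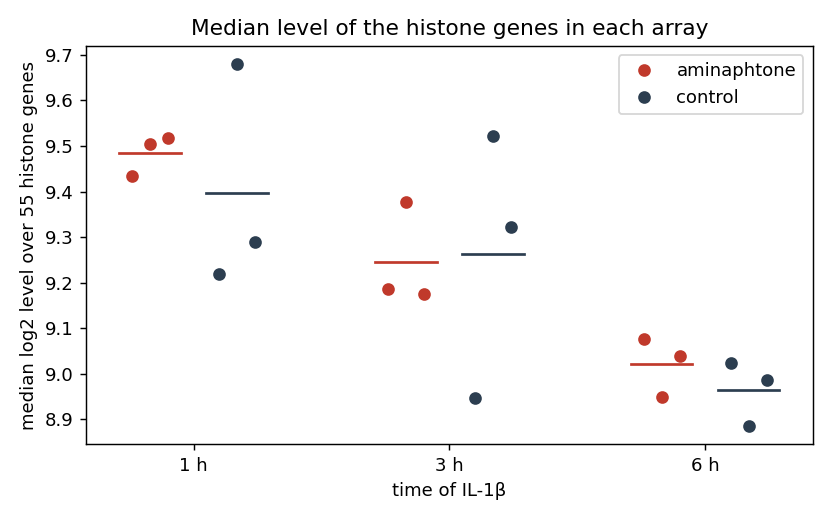
Median log2 level over the 55 histone genes in each array (points, 1 per replicate) with the group mean (bars), by time, aminaphtone left and control right. Arrays at 6 h lie between 8.89 and 9.08, below all arrays at 1 h, and 2 of the control groups, at 1 and 3 h, are spread widely.

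Between 1 and 6 h the histone genes fell in large numbers, in both arms and in all 5 classes. With aminaphtone 29 of 55 were lower at 6 h than at 1 h past an adjusted p of 0.05 (limma), and 1 was higher. Of all tested transcript clusters 10.7% were lower and 6.01% higher in the same comparison. In control 22 of 55 were lower and none higher, against 15.2% lower among all tested. The median log2 difference of the 55 genes was -0.44 with aminaphtone and -0.34 in control, where the median of all tested was 0.02 and -0.01. In 40 of the 55 all 3 arrays at 6 h lay below all 3 at 1 h with aminaphtone, against 25.4% of all tested, and in 28 in control, against 17.8%. In bulk RNA of this kind, fewer cells in S phase and less histone mRNA per cell cannot be told apart.

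The counts moved with single arrays. In control, leaving out replicate 1 at 1 h gave 35 lower genes, leaving out replicate 2 at 1 h gave 13, leaving out replicate 3 at 6 h gave 14, and a fit of the 6 control arrays at these times alone called only 2, H1-3 and H1-5. With aminaphtone, the number was 15 without aminaphtone 1 h replicate 1, 1 h replicate 2 or 6 h replicate 2, and 18 without 6 h replicate 3. The fit of the 6 aminaphtone arrays at these times alone called 39 lower. Calls over all 15796 tested, in either direction, moved as well. They numbered 1088 with the control arrays alone, against 4185 in the main fit, and 5201 with the aminaphtone arrays alone, against 2644. Those of the fits without 1 array are not given here. Of the main calls, 13 of the 22 in control and 11 of the 30 with aminaphtone held without any one of the 18 arrays. Of the 22, all 22 passed without control 1 h replicate 1, 13 without replicate 2 and 18 without replicate 3, and all stayed below 0.

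The arms use different arrays but were fitted together with a shared estimate of spread. A gene therefore has the same SE in both arms, and its calls in them are not independent. The lists of lower genes shared 16 genes, 55.2% of the aminaphtone list and 72.7% of the control list. Whether this is more than the sizes of the lists alone would give, or than among all tested transcript clusters, was not tested. Passing in one arm alone were 13 genes with aminaphtone and 6 in control. By class, the aminaphtone list held 3 of 8 H1, 5 of 13 H2A, 6 of 15 H2B, 7 of 8 H3 and 8 of 10 H4 genes, and the control list 5 of 8 H1, 5 of 13 H2A, 5 of 15 H2B, 3 of 8 H3 and 4 of 10 H4 genes. A gene on a single list is not shown to differ between the arms: the interaction of treatment and time, which tests that, called 0 of 55 genes (limma; 0.038% of all tested), 0 at an unadjusted p under 0.05, where all tested had 9.23%, and 0 with a trended, robust variance.

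**Figure D3:**
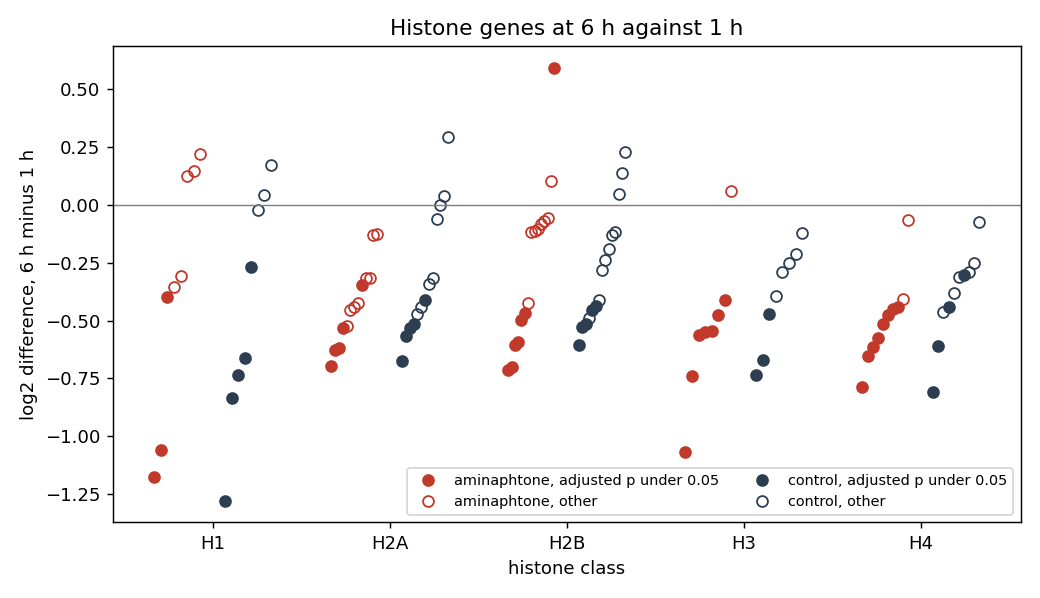
Log2 difference at 6 h minus 1 h for each histone gene (points), by class, aminaphtone left and control right within each class; filled points have an adjusted p under 0.05. Most points lie below 0, H1-3 is lowest at -1.17 with aminaphtone and -1.28 in control, and H2BC12 with aminaphtone is the filled point above 0.

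H1-3 had the largest fall of the 55 genes in both arms. H1-3 is a replication-dependent linker histone. It had log2 levels of 8.76, 8.58 and 8.50 at 6 h with aminaphtone, against 9.94, 9.75 and 9.67 at 1 h. In control its levels were 8.48, 8.54 and 8.40 at 6 h and 9.46, 10.24 and 9.56 at 1 h. In both arms the arrays of the 2 times were far apart and did not overlap. It fell by 1.17 on the log2 scale with aminaphtone (SE 0.189, adjusted p = 0.000416) and by 1.28 in control (SE 0.189, adjusted p = 0.000184), which is 2.26-fold and 2.43-fold.

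H1-5, also replication-dependent, read 10.11, 10.00 and 10.01 at 6 h with aminaphtone against 11.27, 11.20 and 10.83 at 1 h. In control it read 10.28, 10.35 and 10.11 at 6 h against 10.85, 11.45 and 10.96 at 1 h. Here too every array at 6 h lay below every array at 1 h. The falls were 1.06 with aminaphtone (SE 0.155, adjusted p = 0.00019) and 0.84 in control (SE 0.155, adjusted p = 0.00104). H1-4, the brightest gene, fell less, by 0.40 with aminaphtone (adjusted p = 0.00554) and by 0.27 in control (adjusted p = 0.0379). The control call for H1-4 held in 9 of the 18 fits that left out 1 array. It was lost without control 1 h replicate 2 or 3 (adjusted p = 0.119 and 0.0556), any control array at 6 h (0.0607 to 0.137), or aminaphtone 1 h replicate 3, 3 h replicate 1, or 6 h replicate 2 or 3 (0.0501 to 0.0516). H1-2 fell in control by 0.66 (adjusted p = 0.00855) and was 0.36 lower with aminaphtone without passing (adjusted p = 0.169). The replication-independent H1-10 fell in control by 0.74 (adjusted p = 0.00542), with 1 control 1 h array at 10.41 and the other two at 9.56 and 9.79 (-0.49, adjusted p = 0.0191, without the first of these), and its difference with aminaphtone was -0.31 (adjusted p = 0.254). The germ cell genes H1-7 and H1-8 and the pseudogene H1-9P had differences of 0.22, 0.13 and 0.15 with aminaphtone, none past the threshold.

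Among H3 and H4 genes, which encode the core of the nucleosome, the falls were broad with aminaphtone. H3C1 read 9.63, 9.58 and 9.57 at 6 h against 10.69, 10.79 and 10.51 at 1 h with aminaphtone, and 9.65, 9.92 and 9.67 against 10.12, 10.93 and 10.20 in control. The 2 times did not overlap in either arm. H3C1 fell by 1.07 with aminaphtone (SE 0.179, adjusted p = 0.000602) and by 0.67 in control (SE 0.179, adjusted p = 0.0113). Without control 1 h replicate 2 the control difference was -0.41 (adjusted p = 0.0478).

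H4C9 read 6.62, 6.596 and 6.65 at 6 h against 7.42, 7.34 and 7.48 at 1 h with aminaphtone, and 6.84, 6.80 and 6.83 against 7.14, 7.71 and 7.45 in control. Its arrays at 6 h agree to within a few hundredths in each arm and lie below those at 1 h. It fell by 0.79 with aminaphtone (SE 0.136, adjusted p = 0.000751) and by 0.61 in control (SE 0.136, adjusted p = 0.00403). H3C12 fell by 0.74 in both arms (adjusted p = 0.0109 with aminaphtone and 0.00829 in control), but without aminaphtone 6 h replicate 2 its adjusted p with aminaphtone was 0.0512, and without control 1 h replicate 2 its control difference was -0.44 (adjusted p = 0.0251). H4C1 fell in control by 0.81 (adjusted p = 0.00377), where it read 7.96, 8.09 and 8.03 at 6 h against 8.56, 9.31 and 8.63 at 1 h, and its difference with aminaphtone was -0.41 (adjusted p = 0.137).

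Among H2A and H2B genes, H2AC8 fell by 0.63 with aminaphtone (adjusted p = 0.00312) and by 0.51 in control (adjusted p = 0.00851), and H2BC13 by 0.71 (adjusted p = 0.00539) and by 0.61 (adjusted p = 0.0111). Without control 1 h replicate 2 the control difference of H2BC13 was -0.38 (adjusted p = 0.0458). H2AC6 fell by 0.35 with aminaphtone (adjusted p = 0.0236) and by 0.57 in control (adjusted p = 0.000717). With aminaphtone this call was lost without any aminaphtone array at 1 h, or without replicate 2 or 3 at 6 h (adjusted p = 0.0585 to 0.101). H2BC14, the brightest H2B gene, fell by 0.47 with aminaphtone (adjusted p = 0.0114) and differed by -0.19 in control (adjusted p = 0.265); its adjusted p with aminaphtone was 0.0542 without 1 h replicate 1 and 0.0519 without 6 h replicate 3. H2BC9, the H2B gene with the smallest p over the 6 groups, fell by 0.60 with aminaphtone (adjusted p = 0.0033) and by 0.46 in control (adjusted p = 0.0143), where its adjusted p was 0.0649 without 1 h replicate 2 and 0.0621 without 6 h replicate 3. In the 8 head-to-head pairs the partners' differences need not match: with aminaphtone, H2AC8 was at -0.63 and its partner H2BC8 at -0.08, and in control H2AC25 was at -0.68 (-0.42, adjusted p = 0.058, without 1 h replicate 2) and H2BC26 at 0.14. The pair H2AC13 and H2BC13 stood closer together, at -0.44 and -0.71 with aminaphtone and at -0.32 and -0.61 in control.

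H2BC12 was the only one of the 55 called higher at 6 h than at 1 h, and the call was with aminaphtone. It read 11.93, 11.96 and 11.92 at 6 h with aminaphtone, against 11.39, 11.17 and 11.47 at 1 h. In control it read 11.63, 11.09 and 11.61 at 6 h, against 11.23, 11.43 and 11.53 at 1 h. With aminaphtone the 2 times did not overlap, and in control they did. It rose by 0.59 with aminaphtone (SE 0.165, adjusted p = 0.0191), and its difference in control was 0.05 (SE 0.165, adjusted p = 0.885). The rise passed the threshold in 13 of the 18 fits that left out 1 array, with an adjusted p of up to 0.089 in the others, each of which left out an aminaphtone array (1 h replicate 1 or 2, or any at 6 h). For H2BC12 the interaction had an adjusted p of 0.551. A second transcript cluster, annotated to H2BC12, H2BC12L, H2BC17 and H2BC5 together and brighter (mean log2 12.28), differed by -0.28 with aminaphtone (adjusted p = 0.117) and by -0.27 in control (adjusted p = 0.0931), the opposite sign.

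**Figure D4:**
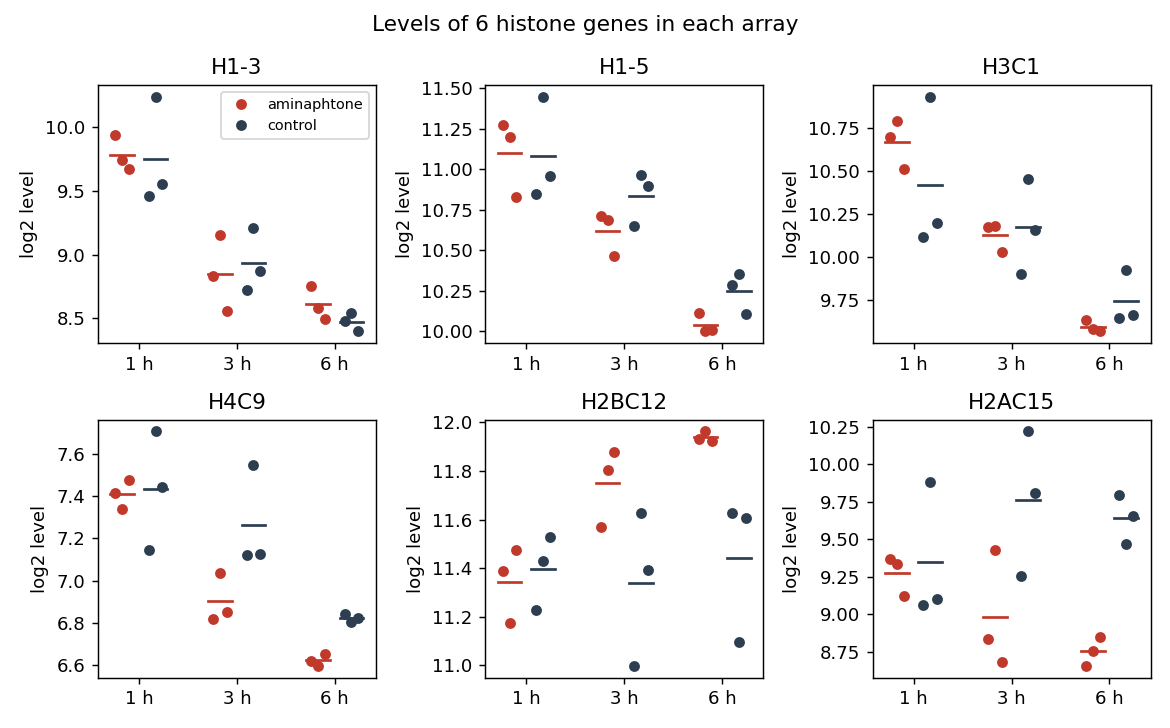
Log2 level in each array (points) with group means (bars) for 6 histone genes, by time, aminaphtone left and control right; each panel has its own axis. H1-3, H1-5, H3C1 and H4C9 are lowest at 6 h in both arms, H2BC12 is highest at 6 h with aminaphtone, and H2AC15 at 6 h reads 8.66 to 8.85 with aminaphtone and 9.47 to 9.80 in control.

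At 3 h the mean of 47 of the 55 genes with aminaphtone, and of 37 in control, lay between those at 1 h and 6 h, and few differences from 1 h passed. In control 14 genes had their highest mean at 3 h, among them H2AC15, H2BC14 and H2AC20, and with aminaphtone 4 did. With aminaphtone, H1-3 and H4C9 were lower at 3 h than at 1 h, 2 of 55 against 5.45% of all tested, and the median difference of the 55 was -0.22. H1-3 read 8.83, 9.15 and 8.56 at 3 h and fell by 0.94 (adjusted p = 0.0038), and H4C9 fell by 0.51 (adjusted p = 0.0236). Without aminaphtone 1 h replicate 1, 1 h replicate 3, 3 h replicate 1 or 3 h replicate 3 the adjusted p of H4C9 was 0.0656 to 0.107. The count was 5 when control replicate 1 of 1 h was left out and 8 when replicate 2 was, both arrays outside this comparison that share the estimate of spread, and 1 without aminaphtone 1 h replicate 1, 3 h replicate 1 or 3 h replicate 3.

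In control, H1-3 and H2AC25 were lower at 3 h, 2 of 55 against 7.98% of all tested, by 0.82 (adjusted p = 0.00855) and 0.69 (adjusted p = 0.0218), with a median of -0.06 over the 55. H1-3 had an adjusted p of 0.0553 without control 3 h replicate 1. For H2AC25 the adjusted p was 0.0819 when control 1 h replicate 2 was left out, 0.119 for 3 h replicate 1 and 0.0671 for 3 h replicate 3. The count was 4 without control 1 h replicate 1. With replicate number as a block the same 2 genes passed, and with only these arrays none did. Deviations of same-numbered arrays of these 2 groups correlated at 0.258 to 0.359.

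From 3 to 6 h, 0 of 55 passed with aminaphtone (limma; 13 at an unadjusted p under 0.05, where all tested had 9.82%; 0 with a trended, robust variance; 0.241% of all tested were lower), with a median of -0.22. Without control 1 h replicate 2, and with the arrays compared alone, H1-5 (-0.58) and H3C1 (-0.53) passed. H1-5, H2BC14 and H3C1 had the smallest p here, with adjusted p of 0.145, 0.241 and 0.266. In control, H2AC6 was lower, 1 of 55 against 0.165% of all tested, by 0.47 (adjusted p = 0.0467). This call held when replicate 1 or 2 of control at 1 h or replicate 1 of control at 3 h was left out, and was lost without any other array, with an adjusted p of up to 0.297. The count without control 1 h replicate 2 was 5.

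Aminaphtone against control, at any one time, gave no histone gene past the threshold in limma. The counts were 0 of 55 at 1 h, 3 h and 6 h, and 0 at each time with a trended, robust variance. Of all tested transcript clusters 0.0886%, 0.038% and 0.108% passed. At an unadjusted p under 0.05 there were 3, 9 and 8 of the 55, where all tested had 30.8%, 6.5% and 3.93%. The median difference of the 55 was 0.03 at 1 h, -0.09 at 3 h and -0.04 at 6 h, where all tested had -0.10, 0.00 and -0.01. At 1 h, 3 genes had all aminaphtone arrays above all control arrays and 0 had them below, against 5.77% and 7.55% of all tested. At 3 h the numbers were 2 above and 9 below (7.58% and 4.99% of all tested), and at 6 h 8 above and 13 below (8.86% and 7.25%).

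The labels name no pairing of arrays. At 1 h, deviations of treated and control arrays with the same replicate number correlated at 0.746, 0.411 and 0.322. With the number as a block in limma, H4C8 (0.45, adjusted p = 0.0396) and the pseudogene H2BC19P (0.47, adjusted p = 0.0486) passed. With this block 2465 of all tested passed, against 14 without it. H4C8 read 9.61, 9.53 and 9.62 with aminaphtone against 9.25, 8.91 and 9.24 in control at 1 h. All 3 treated arrays lay above the controls, and without the block the adjusted p was 0.139. Without control 1 h replicate 1, 4 genes passed: H4C8 and H2BC19P higher, and H1-10 (-0.44) and H1-7 (-0.41) lower. H2BC26 had the next smallest unblocked p, at 0.33 (adjusted p = 0.139), and at 0.22 without control 1 h replicate 1.

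Averaged over the 3 times, 1 of 55 genes passed, against 0.829% of all tested. This was H2BC19P, a pseudogene near H2BC21, higher by 0.40 with aminaphtone (SE 0.0897, adjusted p = 0.0477). It read 6.97, 6.48 and 7.05 with aminaphtone against 6.42, 6.43 and 6.23 in control at 1 h. At 3 h it read 6.76, 7.002 and 7.09 against 6.25, 6.34 and 6.63, and at 6 h 6.66, 6.91 and 6.77 against 6.47, 6.49 and 6.81. The arms were apart at 1 and 3 h and overlapped at 6 h. The call held in 5 of the 18 fits that left out 1 array, with an adjusted p of up to 0.13 in the others, and was lost with no filter on low signal or with each array centred on its median. A brighter transcript cluster annotated to H2BC19P, H2BC20P and H2BC21 together (mean log2 12.66) differed by 0.07, -0.01 and -0.04 at 1, 3 and 6 h (adjusted p = 0.593, 0.985 and 1). Of the planned fits, the replicate block called 4 genes on average (H2BC19P, H2BC21 and H4C8 higher, H2AC15 lower), and 8 passed without control 1 h replicate 1.

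**Figure D5:**
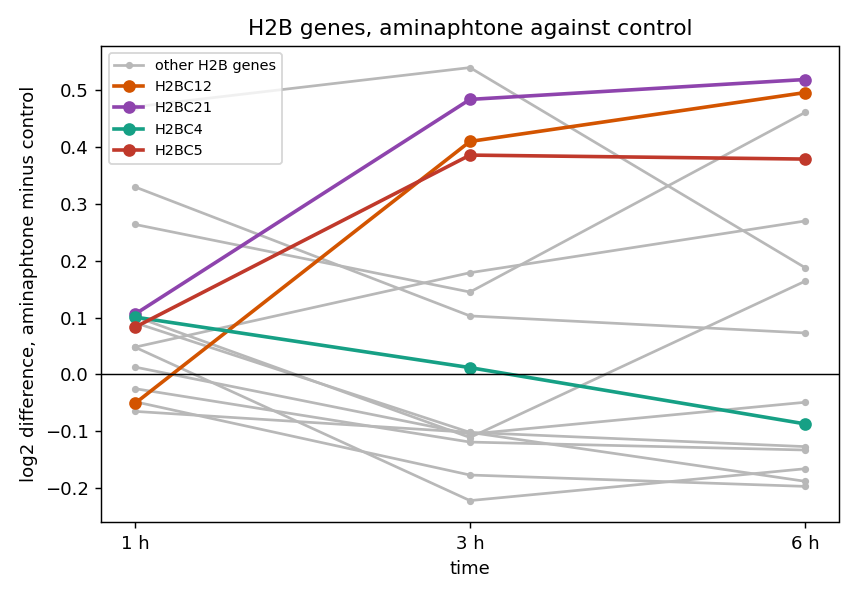
Log2 difference, aminaphtone minus control, at 1, 3 and 6 h for the 15 H2B genes (lines, 1 per gene), with the 4 genes of long annotated span in colour and the others in grey. H2BC12, H2BC21 and H2BC5 lie between 0.38 and 0.52 at 3 and 6 h, H2BC4 is near 0, and none of the differences passed the threshold.

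Within H2B a few genes lay above control at 3 and 6 h. H2BC21 read 10.55, 10.85 and 10.34 with aminaphtone at 3 h against 9.74, 10.41 and 10.14 in control. At 6 h it read 10.39, 10.43 and 10.34 against 9.88, 9.73 and 10.00. The arms overlapped at 3 h and were apart at 6 h. Its differences were 0.48 (SE 0.17, adjusted p = 0.542) and 0.52 (SE 0.17, adjusted p = 0.771). Without control 3 h replicate 1 the difference at 3 h was 0.31. From 1 to 6 h H2BC21 differed by -0.515 in control (limma, adjusted p = 0.0332) and by -0.10 with aminaphtone. The control call was lost without control 1 h replicate 2 or 3 (adjusted p = 0.0753 and 0.126) or any control array at 6 h (0.051 to 0.113). From 1 to 6 h in control, the transcript cluster shared with H2BC19P and H2BC20P differed by -0.145 (adjusted p = 0.308). That shared with H2BC18 and H2BP1 (mean log2 9.05) differed by 0.086 (adjusted p = 0.666). Against control at 3 and 6 h the former was at -0.01 and -0.04 and the latter at 0.258 and 0.459, without a call.

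H2BC12 differed by 0.41 at 3 h (adjusted p = 0.633) and by 0.50 at 6 h (adjusted p = 0.781), where all 3 treated arrays were above the controls. These values rest in part on single arrays: the difference of H2BC12 was 0.24 at 3 h without control 3 h replicate 1 and 0.32 at 6 h without control 6 h replicate 2. H2BC5 differed by 0.39 and 0.38 (adjusted p = 0.761 and 1.0), with overlapping arms. At 3 h it was at 0.18 without control replicate 1 and at 0.58 without control replicate 2. The transcript cluster shared by H2BC12, H2BC12L, H2BC17 and H2BC5 differed by -0.07 and 0.02 (adjusted p = 0.925 and 1). H2BC12, H2BC21 and H2BC5 are, with H2BC4, the H2B genes whose RefSeq gene span exceeds 1 kb (8566, 2224, 13229 and 10757 bases), and they are known also to be made as polyadenylated mRNAs. The median difference of these 4 was 0.40 at 3 h and 0.44 at 6 h, and that of the other 11 was -0.10 and -0.05. H2BC4 itself was at 0.01 and -0.09. This grouping was made after the values were seen and is a description without a test.

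H2AC15 had the largest difference in the other direction. It read 8.66, 8.75 and 8.85 with aminaphtone at 6 h, against 9.80, 9.47 and 9.66 in control. At 3 h it read 8.83, 9.43 and 8.68 against 9.25, 10.22 and 9.81, and at 1 h 9.37, 9.33 and 9.12 against 9.06, 9.88 and 9.10. The arms were well apart at 6 h, overlapped at 3 h in 1 pair of arrays and were mixed at 1 h. The difference was -0.89 at 6 h (SE 0.241, adjusted p = 0.439), -0.78 at 3 h (SE 0.241, adjusted p = 0.473) and -0.58 on average (SE 0.139, adjusted p = 0.0618). With only the 6 arrays at 6 h in the fit the adjusted p was 0.01. A second transcript cluster, annotated to both H2BC15 and H2AC15 and so outside the choice by symbol, differed by -0.11 at 6 h (adjusted p = 1).

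H2BC8 at 6 h read 9.21, 9.24 and 9.19 with aminaphtone against 9.02, 8.55 and 8.69 in control, a difference of 0.46 (adjusted p = 0.973). Its head-to-head partner H2AC8 differed by 0.10. The partners H2BC21 and H2AC20 stood at 0.52 and -0.21 at 6 h, on opposite sides of 0, without a call for either.

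Genes that act with the histones, in lists chosen with earlier results of these data known, were examined over the same times. Of 25 tested DNA replication genes, 23 were lower at 6 h than at 1 h with aminaphtone and 12 in control, against 10.7% and 15.2% of all tested, with medians of -0.90 and -0.38. With aminaphtone, the DNA primase subunit PRIM1 fell by 2.01 (adjusted p = 1.57e-06), and the helicase subunits MCM4, MCM5 and MCM7 by 0.79, 1.30 and 0.90 (adjusted p of 0.000263, 0.000264 and 0.000345). In control, PRIM1 fell by 1.14 (adjusted p = 0.000317), MCM5 by 1.17, MCM2 by 1.07 and the uracil glycosylase UNG by 0.80. None of the 25 passed for aminaphtone against control at any time, and the interaction of treatment and time called 0 of 25. A larger fall with aminaphtone is therefore not shown. Their median difference from control was 0.262 at 1 h, -0.052 at 3 h and -0.108 at 6 h. At 1 h, where the control arrays stood apart, 20 of 25 were above 0, against 40.3% of all tested. The part of these 25 genes in the fall of the histone genes was not tested.

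The histone chaperones, which carry new histones to DNA, had 8 of 17 genes lower and 1 higher at 6 h with aminaphtone, and 3 lower and 1 higher in control. All tested had 10.7% lower with aminaphtone and 15.2% lower in control, so the control count is near the background. The interaction of treatment and time called 0 of 17, so a difference between the arms is not shown. CHAF1B, a subunit of the replication-coupled assembly factor CAF-1, fell by 0.71 with aminaphtone (adjusted p = 0.00201) and by 0.63 in control (adjusted p = 0.00394). ASF1B, which hands H3 and H4 to it, fell by 0.79 and 0.75. NASP, which holds soluble histones, fell by 0.76 with aminaphtone (adjusted p = 0.00549) and was at -0.14 in control (adjusted p = 0.606). CHAF1A fell by 0.77 in control and by 0.52 with aminaphtone.

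Genes for histone transcription and mRNA processing showed no common direction, and the interaction of treatment and time called 0 of 17. With aminaphtone 3 of 17 were lower and 1 higher at 6 h, against 10.7% and 6.01% of all tested, and in control 0 were lower, against 15.2%, and 1 was higher. The 3 were CPSF3, the nuclease that cuts histone pre-mRNA (-1.01, adjusted p = 0.00199), CCNE2, a cyclin E (-0.92, adjusted p = 0.0094), and CASP8AP2 (-0.75, adjusted p = 0.0302), a factor of the histone locus body. The mRNA decay factor UPF1 rose by 0.58 with aminaphtone (adjusted p = 0.0144), and ZNF473, a zinc finger protein of histone pre-mRNA processing, rose by 0.75 in control (adjusted p = 0.0201). SLBP, the stem-loop binding protein, is named for its role: it was at -0.15 with aminaphtone (adjusted p = 0.386) and at 0.24 in control (adjusted p = 0.108).

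The replacement variants, made outside S phase, had counts near the shares of all tested. Of 9 tested, 0 passed at 6 h against 1 h with aminaphtone, against 16.7% of all tested in either direction. The smallest p there belonged to H2AZ2 (-0.36, adjusted p = 0.081) and H3-5 (0.28, adjusted p = 0.137). In control H1-10, counted above, and MACROH2A2 (-0.47, adjusted p = 0.0241) were lower, 2 of 9 against 15.2% of all tested.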

How the data were processed

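The authors deposited log2 signals per transcript cluster, made by RMA in Affymetrix Expression Console per the submitters' processing notes; its version, the annotation's build and the set of arrays normalized together are not given in the sources used here. RMA gives arrays a common distribution, so all changes are relative. Total RNA was labelled by a whole-transcript protocol per the labels' protocols. Arrays give no read depth; precision is limited by how many there are. Replicates are described as independent; nothing names separate batches.

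Of 28869 transcript clusters, 21062 have a gene symbol and 1752 of these have several; 15796 above the 25th percentile of mean level (log2 6.193) were tested. Group means over all 18 arrays were fitted with limma 3.58.1 in R 4.3.3 (12 residual and 4.814 prior degrees of freedom), two-sided, with Benjamini-Hochberg adjustment over the 15796 and a threshold of 0.05. On simulated data of 15796 transcript clusters, log2 changes of 0.5 and 1 were recovered in 34% and 86% at 6 h against control, and in 35% and 86% at 6 h against 1 h with aminaphtone. The simulated noise was independent, with the same SD in every group. It lacks the wide spread of the control 1 h arrays and deviations shared by genes. Only 100 transcript clusters were changed by each amount. In the real 6 h against 1 h comparisons 16.7% with aminaphtone and 26.5% in control passed, which makes the adjustment less strict there. The recovered shares are therefore not those of real changes of these sizes between 1 and 6 h.

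The members and lists were chosen with earlier results of these data known. Genes were named by rule: all calls up to 10 per comparison, otherwise the 5 largest rises and falls, the 3 smallest p where none passed, the brightest and smallest p per class, and up to 4 per list; others are H2BC5, H2BC8, H2AC20, H2BC9 and those named beside a count. Whether equal replicate numbers pair arrays was checked from the deviations: aminaphtone and control at 1 h (0.746, 0.411 and 0.322) and control at 3 h and 1 h (0.313, 0.359 and 0.258) qualified. Other pairs of groups did not, with values down to -0.678. This check cannot show that arrays were paired by design. Alternatives tried were the block, a trended robust variance, only the arrays compared, other filters, centring and leaving out each array. Promoters are from RefSeq, searched on both strands.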

Additional observations from a re-analysis of the deposited data

Results flagged for a closer look

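Transcript clusters annotated with several histone symbols stood outside the choice of genes, and 19 were tested, duplicates included. Of all tested transcript clusters, 0.0886% passed for aminaphtone against control at 1 h. Those below are given because they passed, and 5 kinds did so, at 6 h against 1 h or against control. The one annotated to H4C15 and H4C14 (given in duplicate with equal values) was higher with aminaphtone at 1 h by 0.902 (adjusted p = 0.00271, limma). It read 10.33, 10.34 and 10.65 with aminaphtone against 9.35, 9.64 and 9.61 in control at 1 h, 10.45, 10.41 and 10.35 against 9.65, 10.05 and 9.88 at 3 h, and 10.24, 10.13 and 10.25 against 9.87, 9.76 and 9.80 at 6 h. All treated arrays were above the controls at each time, and at 3 and 6 h the differences of 0.542 and 0.396 did not pass (adjusted p = 0.163 and 0.702).

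At 6 h against 1 h, the transcript cluster of H2BC15 and H2AC15 was lower by -0.643 with aminaphtone and -0.588 in control, and that of H3C4 and H2AC7 by -0.648 and -0.382. That of H3C10 and H2AC13 was lower in control (-0.441), and 1 of those of H3C13, H3C15 and H3C14 with aminaphtone (-0.364). Of all tested, 10.7% were lower with aminaphtone and 15.2% in control, and an excess over these shares was not tested.

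With aminaphtone, H2BC8 and H2BC26 had arrays that were apart in opposite directions in the 2 intervals. H2BC8 differed by -0.132 at 3 h against 1 h and by 0.048 at 6 h against 3 h, and H2BC26 by -0.234 and 0.116. None of these differences passed the threshold. The difference between the intervals was not tested, and the 3 h arrays enter both. The share of all tested transcript clusters with such a pattern was not counted, so these genes are not shown to be unusual. No other of the 55 genes did so in either arm, and none had opposite directions between the arms over the same interval, or between times for aminaphtone against control.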

How the results depend on the processing

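Direction was checked for genes in the comparisons that named them by rule. It was also checked for H2BC12, H2BC21, H2BC5 and H2AC15 against control at 3 and 6 h. None of these changed direction under the settings listed. Other printed differences were not all checked. That of H2BC12 at 6 h against 1 h in control went from 0.047 to -0.036 without control 1 h replicate 1. The number of histone genes past the threshold, by setting, was as follows. For aminaphtone against control at 1 h it was 2 with the replicate block and 0 to 4 when 1 array was left out. At 6 h it was 1 with only the arrays compared. For the average it was 4 with the replicate block, 0 with no filter, the stricter filter (50th percentile) or each array centred on its median, and 0 to 8 when 1 array was left out. For 3 h against 1 h it was, with aminaphtone, 4 with the block, 6 with only the arrays compared, 1 with the stricter filter and 1 to 8 without 1 array, and in control 0 with only the arrays compared and 0 to 4 without 1 array. For 6 h against 1 h it was 15 to 35 with aminaphtone and 13 to 35 in control without 1 array, and 2 in control with only the arrays compared. For 6 h against 3 h it was, with aminaphtone, 2 with only the arrays compared and 0 to 2 without 1 array, and in control 0 with the block, the trended robust variance, only the arrays compared, the stricter filter or centring, and 0 to 5 without 1 array. The counts over all tested transcript clusters moved between settings too and are not all given here. The cause was not tested. The block changed no other call count by over 1.5 times; where numbers do not pair arrays, it is only a shared number. Fits of few arrays have fewer degrees of freedom. Under the stricter filter the low-signal gene H2BC19P is not tested.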
